A study of Mus musculus with 6 samples.

Results

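Cells of the brain make nearly all of their own cholesterol, because lipoproteins of the blood do not cross the blood-brain barrier. The enzymes of the pathway turn acetyl-CoA into mevalonate, mevalonate into isoprene units and squalene, and squalene into the sterol ring that is trimmed to cholesterol. Most of their genes are switched on by SREBP2, a membrane-bound transcription factor that SCAP escorts to the Golgi when sterols are low and that the INSIG proteins hold in the endoplasmic reticulum when sterols are high. The 27 genes described here were chosen by name from 46078 genes in the count tables. They are 20 enzymes of that route or a branch of it, 5 genes of SREBP control, the sterol carrier *Stard4* and the ubiquitin ligase *Mylip*. The enzyme of the branch is *Ggps1*, whose product feeds protein prenylation and not sterols, and it is counted among the 20 throughout. Each has 1 row in the tables, and all 27 were among the 15554 genes that passed the filter on low counts.

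The libraries are bulk RNA-Seq, from 3 infarcts and 3 contralateral cortices of wild type C57BL/6J mice, 3 months of age per the labels and male per the study's methods. Stroke was induced by occlusion of the distal middle cerebral artery followed by hypoxia (DH stroke), and tissue was taken 7 weeks later. The infarct was dissected by eye, and its comparison tissue was the matching cortex on the uninjured side, so that both regions came from mice that had undergone stroke and anesthesia. The labels number the libraries of each region from 1 to 3 but do not tie an infarct to the contralateral cortex of the same mouse or name separate animals, so *p* values measure the spread between these libraries. Sequenced libraries held 12146959 to 13427057 counts on genes in infarcts and 11943570 to 19933962 in contralateral cortices. Levels are given as counts per 1000000 (CPM) on library sizes scaled with TMM (trimmed mean of M values), and differences as log2 fold changes of infarct over contralateral cortex with their standard error (SE) and with *p* values from edgeR's quasi-likelihood test adjusted over all 15554 tested genes. A gene rose or fell where that adjusted *p* was under 0.05.

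The regions differed in their cell markers, and these values accompany every result that follows. Among all tested genes 34.2% rose and 30.8% fell, and each count of markers stands beside those shares. All 10 neuronal markers fell in infarcts, where they summed to 837 to 2329.5 CPM beside 11153 to 12184 CPM in contralateral cortices. All 10 microglia and macrophage markers rose, from 184 to 244 CPM in contralateral cortices to 2061 to 2709 CPM in infarcts. All 8 fibroblast markers (148 to 210.3 CPM in contralateral cortices, 7731 to 9506 CPM in infarcts) and the 7 lymphocyte and plasma cell markers reported here (5.54 to 6.00 and 190.1 to 2108 CPM) rose as well. Of 10 oligodendrocyte markers, 9 rose, and the sum was 4600.0 to 7409 CPM in infarcts and 2373 to 2805 CPM in contralateral cortices. Astrocyte markers were split, with 6 higher and 3 lower of 10, and summed to 5455 to 7922 CPM in infarcts and 13455 to 14418 CPM in contralateral cortices. Their median log2 fold change was 0.62, so the lower sum does not stand for most of these markers. Of 8 markers each, 4 of oligodendrocyte precursors and 5 of endothelium rose and none fell, with sums of 587 to 706 and 552 to 741 CPM in infarcts beside 271 to 287 and 374 to 434 CPM in contralateral cortices. In contralateral cortices the lymphocyte marker *Cd2* was at 0 in all 3 libraries, which allows up to 3 counts in each, whereas none of the neuronal markers was at 0 in any infarct. In such bulk tissue, fewer cells of a type and less RNA per cell cannot be told apart. The part of the cell markers in the results below was not tested.

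Promoters of several members are shown because SREBP proteins bind sterol regulatory elements in the promoters of cholesterol genes, next to boxes bound by NF-Y. RefSeq (GRCm38.p6) windows of 250 bases before the transcription start were at hand for 23 members, all but *Fdps*, *Fdft1*, *Sqle* and *Stard4*, and were searched on both strands for 3 short motifs. The first can share its last letters with the second, and did so in none of the sequences shown. The letters TCACNCCA, a core form of the sterol regulatory element, stood in 3 of 23 members' windows, those of *Hmgcs1*, *Srebf2* and *Msmo1*, beside 4.2% of 27025 genes with a window. CCAAT, the NF-Y box, stood in 21 of 23 members' windows and in 37.5% of all genes. By direction, CCAAT was in the windows of 13 of 14 members that fell, 4 of 4 that rose and 4 of 5 that did not pass the test. The E-box CACGTG stood in 5 members' windows, of *Dhcr7*, *Hsd17b7*, *Insig1*, *Sc5d* and *Scap*, and in 6.86% of all genes. A match of letters is no evidence of binding, and the sequences below are 5′ to 3′ along the gene, with TCACNCCA and CCAAT on either strand in capitals. The first 3 are the promoters with the sterol element letters, all of genes that fell, though only 3 of 14 members that fell had them. Of members that rose, 0 of 4 had them, and of those that did not pass the test, 0 of 5. The last 3 sequences are of genes that rose. For *Srebf2* the stretch ends where its GENCODE exon begins, and for *Msmo1* only 30 bases around the match are given, since the match lies inside an annotated exon. The *Lbr* window lies outside the gene's exons but inside its GENCODE span, which on the minus strand begins at 181843046.
Hmgcs1, ENSMUSG00000093930, chr13:119690101-119690350 plus strand: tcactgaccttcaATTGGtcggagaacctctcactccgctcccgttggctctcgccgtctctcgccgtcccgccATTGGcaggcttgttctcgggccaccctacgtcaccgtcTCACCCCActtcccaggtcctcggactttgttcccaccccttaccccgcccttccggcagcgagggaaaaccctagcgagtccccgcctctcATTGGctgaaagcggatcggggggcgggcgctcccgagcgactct
Srebf2, ENSMUSG00000022463, chr15:82147019-82147180 plus strand: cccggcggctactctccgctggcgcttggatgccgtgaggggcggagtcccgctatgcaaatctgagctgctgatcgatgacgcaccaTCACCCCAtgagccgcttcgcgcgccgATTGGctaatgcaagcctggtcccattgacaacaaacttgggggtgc
Msmo1, ENSMUSG00000031604, chr8:64733733-64733762 minus strand: actattcTCACTCCAtccgcgcagCCAATg
Ebp, ENSMUSG00000031168, chrX:8193513-8193762 minus strand: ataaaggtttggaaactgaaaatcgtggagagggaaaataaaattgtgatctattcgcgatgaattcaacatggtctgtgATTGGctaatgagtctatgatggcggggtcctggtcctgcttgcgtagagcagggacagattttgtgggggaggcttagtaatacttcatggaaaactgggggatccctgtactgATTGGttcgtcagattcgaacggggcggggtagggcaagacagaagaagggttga
Lbr, ENSMUSG00000004880, chr1:181842402-181842651 minus strand: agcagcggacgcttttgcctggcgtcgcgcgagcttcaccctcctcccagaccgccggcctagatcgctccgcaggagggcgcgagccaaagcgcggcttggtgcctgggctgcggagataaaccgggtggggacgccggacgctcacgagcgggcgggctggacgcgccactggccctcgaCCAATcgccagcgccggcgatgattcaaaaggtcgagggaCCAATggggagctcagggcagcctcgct
Mylip, ENSMUSG00000038175, chr13:45389492-45389741 plus strand: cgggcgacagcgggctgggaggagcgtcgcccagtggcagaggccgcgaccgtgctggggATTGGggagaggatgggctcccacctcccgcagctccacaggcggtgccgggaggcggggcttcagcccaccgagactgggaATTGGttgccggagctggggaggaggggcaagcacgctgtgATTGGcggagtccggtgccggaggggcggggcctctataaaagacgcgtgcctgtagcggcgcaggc

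Of the 27 members, 18 fell in infarcts and 4 rose, and 5 did not pass the test. Among all tested genes 30.8% fell and 34.2% rose, so the share of members that fell was larger than that of all genes and the share that rose was smaller. With a change over 2-fold also required, 15 members fell and 4 rose, beside 20.9% and 25.7% of all tested genes. These shares of all tested genes stand beside the counts of each stage below as well. The median log2 fold change of the members was -1.25, and that of all tested genes was 0.030. In 19 members every infarct library lay below every contralateral library, and in 4 every infarct lay above, beside 34.7% and 37.6% of all tested genes. The 20 enzymes divided into 15 that fell, 2 that rose and 3 that did not pass, with a median of -1.27. The plot of log2 fold changes in pathway order shows the fall along most of the route and the 4 genes that stood out in the other direction, *Lbr*, *Ebp*, *Srebf1* and *Mylip*.

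**Figure D1:**
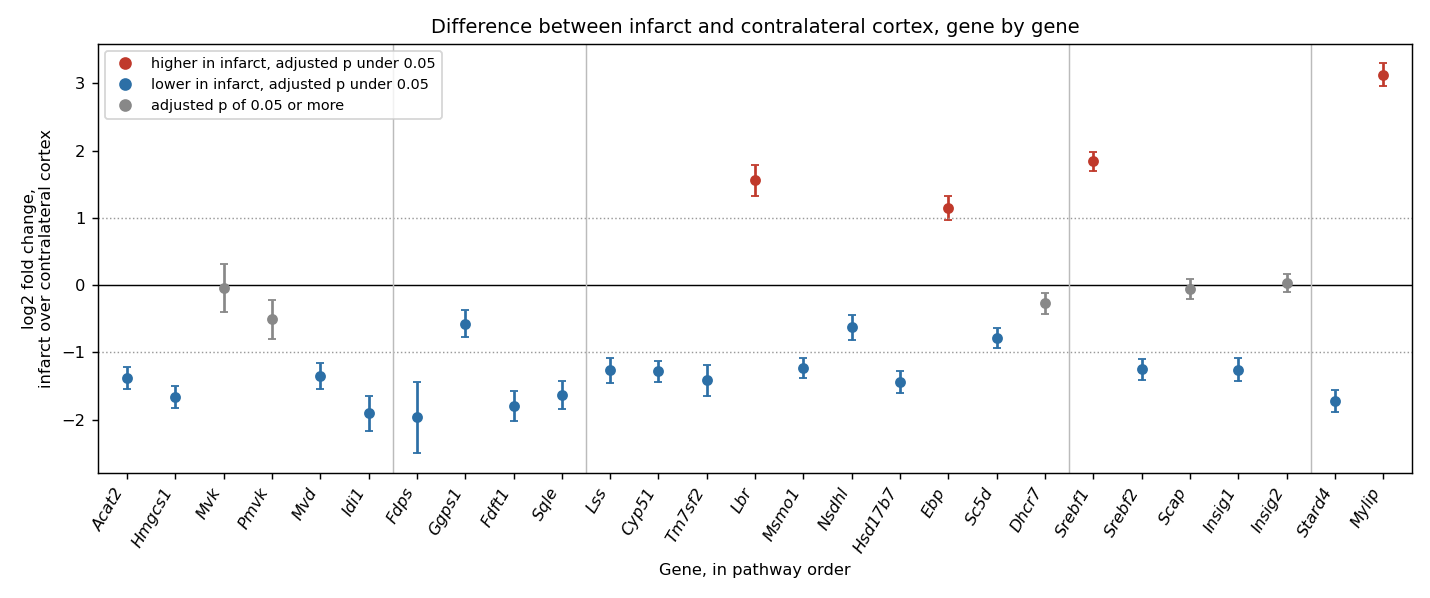
Log2 fold change of infarct over contralateral cortex (y axis) for each of the 27 genes in pathway order (x axis), with bars of 1 SE from edgeR, 3 libraries per region. Dotted lines mark a 2-fold change and grey lines part the mevalonate stage, the squalene stage, the sterol ring stage, SREBP control and the last pair. The values run from -1.96 for *Fdps* to 3.13 for *Mylip*, and 4 genes stand above the upper dotted line.

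In the mevalonate stage, where acetyl-CoA is built into isoprene units, 4 of 6 genes fell and all 4 by more than 2-fold. *Hmgcs1*, the cytosolic HMG-CoA synthase, was the most abundant of the 20 enzymes per kilobase of merged exons in both regions. It measured 438, 402 and 458 CPM in contralateral cortices and 116, 141 and 153 CPM in infarcts. Even the highest infarct lay under the lowest contralateral value, and the log2 fold change was -1.66 (SE 0.16, adjusted *p* = 1.42e-05). Another locus on the opposite strand covers 12.1% of the exon bases of *Hmgcs1*, and other loci share 9.8% of its 75-base words. *Acat2*, the thiolase that joins the first acetyl units, measured 29.3, 35.9 and 33.6 CPM in contralateral cortices against 13.1, 11.7 and 13.2 CPM in infarcts, for a log2 fold change of -1.38 (SE 0.16, adjusted *p* = 5.70e-05). A near-identical neighbor, *Acat3*, shares 33.9% of the 75-base words of *Acat2*, so reads could be lost or split between them.

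The later steps of this stage did not move together. *Mvk* and *Pmvk*, the kinases that phosphorylate mevalonate, did not pass the test. *Mvk* measured 3.92, 2.08 and 4.15 CPM in contralateral cortices and 4.06, 2.35 and 3.41 CPM in infarcts, overlapping values with a log2 fold change of -0.044 (SE 0.35, adjusted *p* = 0.920). *Pmvk* averaged 8.16 ± 2.06 CPM (SD, n = 3) in contralateral cortices and 5.71 ± 1.64 CPM in infarcts, and its values also overlapped (log2 fold change -0.51, SE 0.29, adjusted *p* = 0.148). Both are low in these libraries, with 32 to 75 counts per library for *Mvk*, and an SE of 0.35 leaves room for a change of either sign. The next enzymes fell. *Mvd*, which removes a carboxyl group to give isopentenyl diphosphate, measured 15.2, 16.6 and 12.6 CPM in contralateral cortices and 6.13, 5.51 and 5.73 CPM in infarcts, with a log2 fold change of -1.35 (SE 0.20, adjusted *p* = 2.01e-04). *Idi1*, the isomerase of that product, fell from 21.3, 13.7 and 22.8 CPM to 3.90, 5.29 and 6.14 CPM, a log2 fold change of -1.91 (SE 0.26, adjusted *p* = 1.40e-04). Other loci, mostly *Gm13502*, share 23.6% of the 75-base words of *Idi1*.

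All 4 genes of the squalene stage, in which isoprene units are joined, fell, 3 of them over 2-fold. *Sqle*, the squalene epoxidase and an oxygen-using step of the pathway, measured 71.7, 56.3 and 70.7 CPM in contralateral cortices and 16.2, 20.8 and 27.1 CPM in infarcts. The regions did not overlap, and the log2 fold change was -1.63 (SE 0.21, adjusted *p* = 9.44e-05). *Fdft1*, squalene synthase and the first step given over to sterols, fell from 41.9, 31.6 and 50.8 CPM to 11.1, 10.2 and 14.3 CPM, a log2 fold change of -1.80 (SE 0.22, adjusted *p* = 6.99e-05). Exons of *Ctsb* on the opposite strand cover 18.3% of the exon bases of *Fdft1*, and the strand setting of the counting is not given in the sources used here. *Fdps*, which makes farnesyl diphosphate at the branch point of sterols and prenylated proteins, rested on very few reads, with 33, 14 and 22 counts in contralateral cortices and 3, 4 and 9 in infarcts. Its log2 fold change was -1.96 (SE 0.53, adjusted *p* = 0.00867). Of its exon bases, 26.7% lie under another annotated locus on the same strand, *Gm43738*. Other loci, mostly *Gm43738*, share 23.5% of its 75-base words. The part of such overlap and similarity in its low counts was not tested.

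*Ggps1* makes geranylgeranyl diphosphate, which feeds protein prenylation and not sterols, and it showed the smallest change of this stage. It measured 46.0, 69.3 and 42.5 CPM in contralateral cortices and 38.0, 36.9 and 31.3 CPM in infarcts, so that contralateral replicate 2 stood well above the others. The log2 fold change was -0.57 (SE 0.21, adjusted *p* = 0.0330). The call was lost without contralateral replicate 2, where the log2 fold change shrank to -0.33 (adjusted *p* = 0.144), and without infarct replicate 3, where it was -0.48 (adjusted *p* = 0.0831), again by edgeR. Without infarct replicate 2 the difference was as large, at -0.59, with a larger SE of 0.25 (adjusted *p* = 0.0732). On plain library totals it was -0.37 and also lost the call (adjusted *p* = 0.140).

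**Figure D2:**
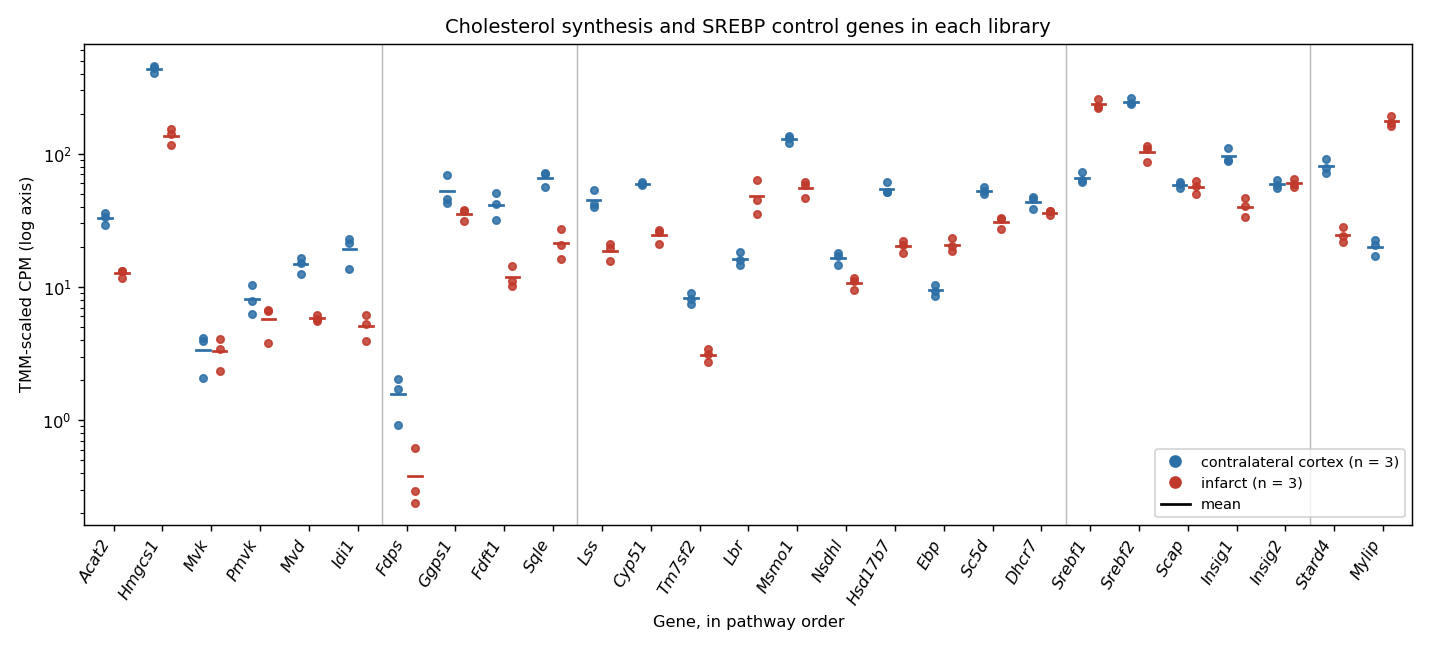
TMM-scaled CPM on a log axis (y) of each gene in pathway order (x), with 1 point per library, contralateral cortices in blue, infarcts in red and a line at each mean. Points of the regions overlap for *Mvk*, *Pmvk*, *Scap* and *Insig2*, and *Fdps* lies lowest, with an infarct mean of 0.382 CPM.

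The sterol ring stage held both directions. Of its 10 genes, 7 fell, 5 of them by over 2-fold, 2 rose and 1 did not pass the test. *Msmo1*, the oxygenase that removes methyl groups from the ring, was the most abundant of them per kilobase of merged exons in contralateral cortices. It measured 136, 133 and 122 CPM there against 46.4, 58.3 and 61.3 CPM in infarcts. Its log2 fold change was -1.23 (SE 0.15, adjusted *p* = 6.78e-05). *Cyp51*, the lanosterol demethylase, varied little between libraries of a region, with 59.6 ± 1.72 CPM (SD, n = 3) in contralateral cortices and 24.6 ± 3.13 CPM in infarcts. It fell with a log2 fold change of -1.28 (SE 0.16, adjusted *p* = 6.39e-05). *Lss*, which folds epoxidized squalene into lanosterol, averaged 44.9 ± 7.13 CPM (SD, n = 3) in contralateral cortices and 18.7 ± 2.86 CPM in infarcts, for a log2 fold change of -1.26 (SE 0.19, adjusted *p* = 2.32e-04). The ketone reductase *Hsd17b7*, a partner of *Msmo1* in demethylation, fell from 54.8 ± 5.81 to 20.2 ± 2.14 CPM, a log2 fold change of -1.44 (SE 0.16, adjusted *p* = 3.98e-05).

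Smaller falls were measured for 2 further enzymes. *Nsdhl*, the dehydrogenase of the same demethylation, averaged 16.6 ± 1.66 CPM (SD, n = 3) in contralateral cortices and 10.7 ± 1.17 CPM in infarcts, with a log2 fold change of -0.63 (SE 0.18, adjusted *p* = 0.0118). On plain library totals, which move the median of all tested genes to 0.23, its call was lost (log2 fold change -0.43, adjusted *p* = 0.0566 by edgeR). *Sc5d*, a desaturase near the end of the route, fell from 52.8 ± 3.09 to 30.7 ± 3.16 CPM, a log2 fold change of -0.78 (SE 0.15, adjusted *p* = 0.00126). *Dhcr7*, the reductase that yields cholesterol itself, measured 47.2, 38.5 and 45.5 CPM in contralateral cortices and 37.0, 34.6 and 37.1 CPM in infarcts. Its infarct values all lay below the contralateral ones, but the log2 fold change of -0.27 (SE 0.15) did not pass the test (adjusted *p* = 0.136).

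The enzymes that rose were *Lbr* and *Ebp*. *Ebp*, the isomerase that moves a double bond within the ring, measured 8.57, 9.31 and 10.3 CPM in contralateral cortices and 23.3, 20.3 and 18.8 CPM in infarcts, with a log2 fold change of 1.15 (SE 0.18, adjusted *p* = 3.13e-04). Every infarct exceeded every contralateral cortex. *Lbr* encodes the lamin B receptor, a protein of the inner nuclear membrane that binds lamin and chromatin besides reducing a double bond of the sterol ring. It measured 15.8, 18.2 and 14.7 CPM in contralateral cortices and 63.9, 44.6 and 35.1 CPM in infarcts, and the log2 fold change was 1.56 (SE 0.23, adjusted *p* = 2.32e-04). Another gene on the opposite strand covers 9.2% of its exon bases. Infarct replicate 1 was highest in *Lbr*, and the same library was highest in the lymphocyte and plasma cell markers, whose sums were 2108, 758 and 190.1 CPM in infarct replicates 1, 2 and 3. Microglia and macrophage markers summed to 2709, 2204 and 2061 CPM in the same libraries. Endothelial markers, at 741, 643 and 552 CPM, and oligodendrocyte precursor markers, at 706, 587 and 607 CPM, were also highest in infarct replicate 1. Neuronal, oligodendrocyte and astrocyte sums were highest in infarct replicate 3, and the fibroblast sum in infarct replicate 2. The part of any of these cell types in the level of *Lbr* was not tested.

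*Tm7sf2* encodes the other enzyme known to reduce that same double bond, and it moved the opposite way. It was scarce, at 8.10, 9.05 and 7.48 CPM in contralateral cortices and 3.11, 2.72 and 3.41 CPM in infarcts, for a log2 fold change of -1.41 (SE 0.23, adjusted *p* = 4.16e-04). Exons of *Vps51* on the same strand cover 12.1% of its exon bases. Taken per kilobase of exon within each library, a ratio that no library scaling can alter, *Lbr* exceeded *Tm7sf2* by 1.81, 1.86 and 1.82 times in the contralateral cortices and by 19.0, 15.2 and 9.51 times in the infarcts. The ratios of the regions did not overlap, and infarct replicate 3 came closest to the contralateral cortices. The lengths are of all annotated exons merged, 4761 bases for *Lbr* and 4403 for *Tm7sf2*. The size of each ratio depends on these lengths, whereas its change between regions does not. An exact permutation test of 3 against 3 libraries cannot give a two-sided *p* under 0.1, so no test of the ratios is reported.

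**Figure D3:**
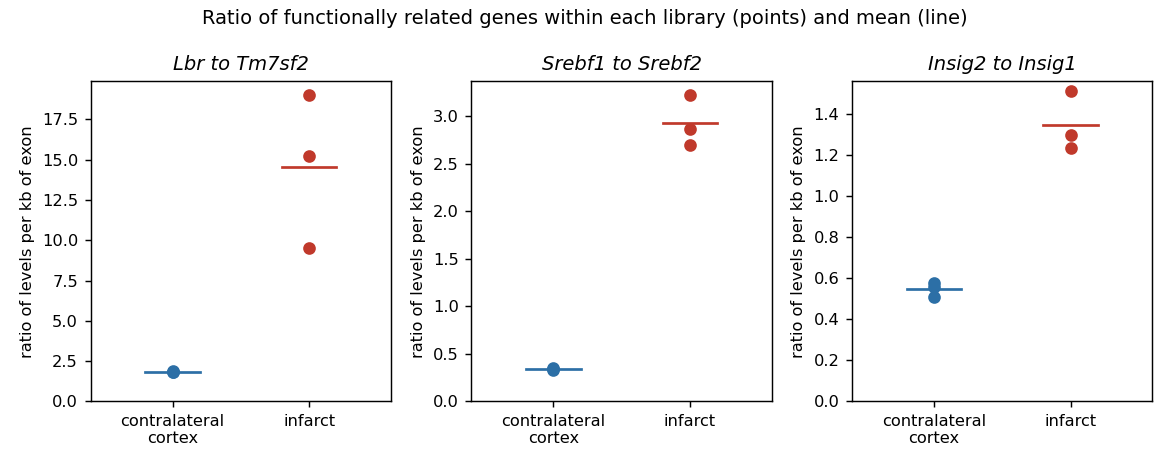
Ratio of levels per kilobase of exon (y axis, linear from 0) for 3 pairs of related genes in contralateral cortices and infarcts (x axis), with 1 point per library and a line at the mean. In each pair the infarct points lie above all contralateral points, from 9.51 to 19.0 for *Lbr* to *Tm7sf2*, and contralateral points partly cover each other.

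Of the 5 genes of SREBP control, 1 rose, 2 fell and 2 did not pass the test, whereas 34.2% of all tested genes rose and 30.8% fell. *Srebf2*, the gene of SREBP2, measured 235, 239.8 and 264 CPM in contralateral cortices and 109, 86.7 and 115 CPM in infarcts, and fell with a log2 fold change of -1.25 (SE 0.16, adjusted *p* = 7.40e-05). *Srebf1*, the gene of the SREBP1 forms that mainly drive fatty acid synthesis, measured 61.5, 63.6 and 73.3 CPM in contralateral cortices and 231, 219 and 259 CPM in infarcts, and rose with a log2 fold change of 1.84 (SE 0.15, adjusted *p* = 4.02e-06). Counts per gene do not separate its SREBP1a and SREBP1c transcripts. The ratio of *Srebf1* to *Srebf2* per kilobase of exon was 0.334, 0.338 and 0.354 in contralateral cortices and 2.70, 3.23 and 2.87 in infarcts, so the more abundant of the pair was *Srebf2* in every contralateral cortex and *Srebf1* in every infarct.

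*Insig1* and *Insig2* encode the proteins that retain SCAP when sterols are plentiful, and *Insig1* is itself a known target of SREBP whereas *Insig2* is not. *Insig1* fell, from 87.8, 110.4 and 89.9 CPM in contralateral cortices to 46.5, 40.7 and 33.2 CPM in infarcts, for a log2 fold change of -1.26 (SE 0.17, adjusted *p* = 1.35e-04). *Insig2* measured 55.0, 63.0 and 58.4 CPM in contralateral cortices and 64.5, 59.4 and 56.4 CPM in infarcts, overlapping values with a log2 fold change of 0.032 (SE 0.14, adjusted *p* = 0.852). The ratio of *Insig2* to *Insig1* per kilobase of exon was 0.558, 0.509 and 0.579 in contralateral cortices and 1.24, 1.30 and 1.51 in infarcts. *Scap*, the escort, also overlapped between regions, with 58.6 ± 2.76 CPM (SD, n = 3) in contralateral cortices and 56.3 ± 6.19 CPM in infarcts (log2 fold change -0.058, SE 0.14, adjusted *p* = 0.741). Its exons overlap another locus on the opposite strand over 13.2% of their bases.

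The last pair acts on sterols and lipoprotein receptors at membranes and moved in opposite directions. *Stard4*, which carries cholesterol between membranes and is a known SREBP2 target, fell from 78.5, 91.7 and 72.2 CPM in contralateral cortices to 28.04, 23.9 and 21.6 CPM in infarcts, for a log2 fold change of -1.72 (SE 0.17, adjusted *p* = 1.45e-05). *Mylip*, also called IDOL, marks lipoprotein receptors for breakdown and is switched on by the oxysterol receptors LXR, as are *Srebf1* and *Abca1*. It measured 20.8, 16.99 and 22.4 CPM in contralateral cortices and 171, 194 and 162 CPM in infarcts. No value of the regions came near another, and the log2 fold change of 3.13 (SE 0.17, adjusted *p* = 3.99e-07), or 8.76-fold, was the largest of the 27 in either direction.

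Ordered by level per kilobase of exon, the genes ranked differently in the regions. In contralateral cortices *Hmgcs1* led with 94.2 ± 6.15 CPM per kilobase (SD, n = 3), ahead of *Srebf2*, with 32.7, 33.4 and 36.8 in the 3 libraries, and *Insig1* with 31.0 ± 4.03, whose means differed by less than the SD of *Insig1*. *Msmo1* and *Insig2* followed, with 21.2 ± 1.24 and 16.9 ± 1.16 CPM per kilobase. In infarcts *Mylip* led with 54.3 ± 5.09 CPM per kilobase, followed by *Srebf1* with 42.0 ± 3.65 and *Hmgcs1* with 29.7 ± 4.09. *Lbr* moved from rank 24 to rank 7 of 27, *Ebp* from rank 23 to rank 9, and *Mylip* from rank 18 to rank 1. *Stard4* moved from rank 6 to rank 16, and *Fdps*, with the overlap and similarity given above, was last in both regions.

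Summed over the 20 enzymes, levels were 1128, 1075 and 1126 CPM in contralateral cortices and 492, 502 and 525 CPM in infarcts. The neuronal marker sums of the same infarct libraries were 837, 1088 and 2329.5 CPM, and so increased in the same library order as the enzyme sums. Oligodendrocyte markers (4600.0, 5382 and 7409 CPM) and astrocyte markers (5455, 5944 and 7922 CPM) increased in that order as well. Sums of microglia and macrophage, lymphocyte and plasma cell, and endothelial markers decreased in it. Those of fibroblasts and oligodendrocyte precursors did neither. Single enzymes differed in that order, with 11 highest in infarct replicate 3 and 8 highest in infarct replicate 1. The part of any of these cell types in the enzyme sums was not tested. *Hmgcs1* alone made up 39.0% of the mean contralateral sum. Over all 27 genes the sums were 1726, 1716 and 1767 CPM and 1199, 1175 and 1235 CPM, in the same order, a narrower gap, with *Srebf1* and *Mylip* higher in infarcts.

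**Figure D4:**
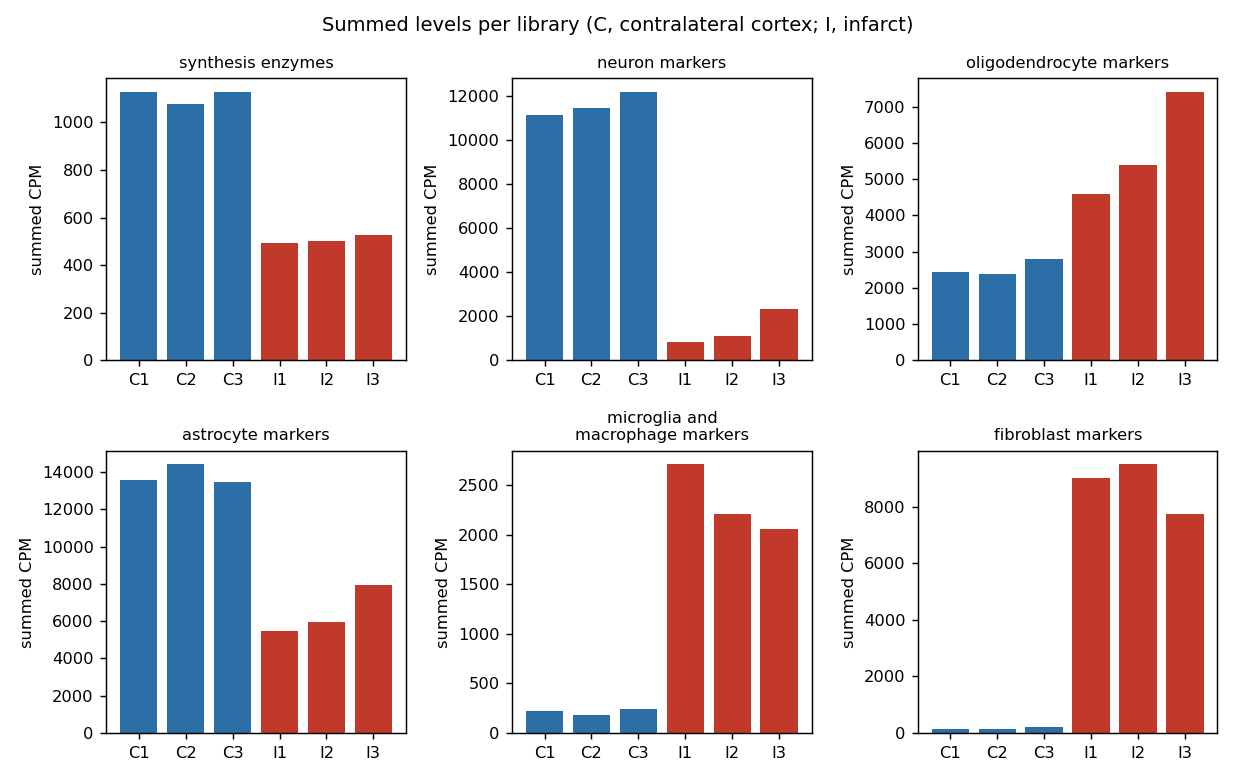
Summed TMM-scaled CPM (y axis, each panel from 0 on its own scale) of the 20 synthesis enzymes and of 5 lists of cell markers in the 3 contralateral (C1 to C3, blue) and 3 infarct libraries (I1 to I3, red). The enzyme sums lie between 492 and 525 CPM in infarcts and between 1075 and 1128 CPM in contralateral cortices.

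Genes that act beside the pathway were read from 4 further lists, given here as counts and medians without a test of the list. Each count of genes that rose or fell stands beside the 34.2% and 30.8% of all tested genes that did so, and each median beside the 0.030 of all tested genes. Of 9 genes that process SREBP proteins or turn over their control proteins, 5 rose and 2 fell, with a median log2 fold change of 0.37, and the share that fell was below that of all tested genes. *Mbtps1*, the protease that makes the first cut in SREBP proteins, rose with a log2 fold change of 1.41 (SE 0.15, adjusted *p* = 2.88e-05), and *Erlin2* and *Rnf139*, which act in the breakdown of membrane proteins, rose by 0.84 and 0.68 on that scale. *Fbxw7*, a ubiquitin ligase subunit that marks nuclear SREBP for breakdown, fell with a log2 fold change of -2.59 (SE 0.24, adjusted *p* = 1.12e-05). *Paqr3*, which tethers SCAP at the Golgi, had a log2 fold change of -1.14 (SE 0.21, adjusted *p* = 8.70e-04), and for *Rnf139* and *Paqr3* 22.3% and 15.7% of exon bases lie opposite another gene.

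Of 14 fatty acid genes that SREBP proteins are known to drive, 4 rose, 4 fell and 6 did not pass the test, with a median of -0.10. Neither count stood above the share of all tested genes. *Elovl5*, a fatty acid elongase, measured 110.4 ± 2.99 CPM (SD, n = 3) in contralateral cortices and 280.1 ± 43.7 CPM in infarcts, for a log2 fold change of 1.34 (SE 0.16, adjusted *p* = 4.79e-05). *Lpin1* and *Gpam*, of glycerolipid synthesis, rose with log2 fold changes of 1.09 and 0.79. *Acss2*, the cytosolic acetyl-CoA synthetase, fell with a log2 fold change of -1.40 (SE 0.15, adjusted *p* = 2.47e-05), and *Elovl6* and *Fasn* changed by -0.75 and -0.55 on the same scale. The last of these, fatty acid synthase, averaged 319 ± 22.3 CPM in contralateral cortices and 218 ± 37.0 CPM in infarcts.

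In the branch that spends isoprene units on proteins, dolichol and ubiquinone, 5 of 10 genes fell and 2 rose, with a median of -0.45. *Pdss1*, *Pdss2* and *Coq2*, which make the tail of ubiquinone and attach it, fell with log2 fold changes of -1.51, -0.93 and -0.71. *Pggt1b* and *Fnta*, subunits of protein prenyltransferases, rose with log2 fold changes of 1.05 and 0.68.

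Of 14 genes that handle finished sterols, 8 rose and 4 fell, with a median of 1.15, and the share that fell was no larger than that of all tested genes. *Abca1*, the cholesterol exporter, measured 84.9, 104 and 87.8 CPM in contralateral cortices and 3492, 2422 and 2118 CPM in infarcts, for a log2 fold change of 4.86 (SE 0.25, adjusted *p* = 3.86e-07). *Npc2*, which binds cholesterol inside lysosomes, and *Soat1*, which esterifies it, rose with log2 fold changes of 3.57 and 2.92. *Cyp46a1*, the enzyme of neurons that hydroxylates cholesterol for removal from the brain, fell from 72.3, 76.4 and 89.4 CPM to 7.09, 7.64 and 14.6 CPM, a log2 fold change of -3.02 (SE 0.28, adjusted *p* = 1.46e-05). *Lrp8*, a lipoprotein receptor of neurons, and *Gramd1b*, which moves cholesterol from the cell surface inward, fell with log2 fold changes of -1.68 and -1.15.

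**Figure D5:**
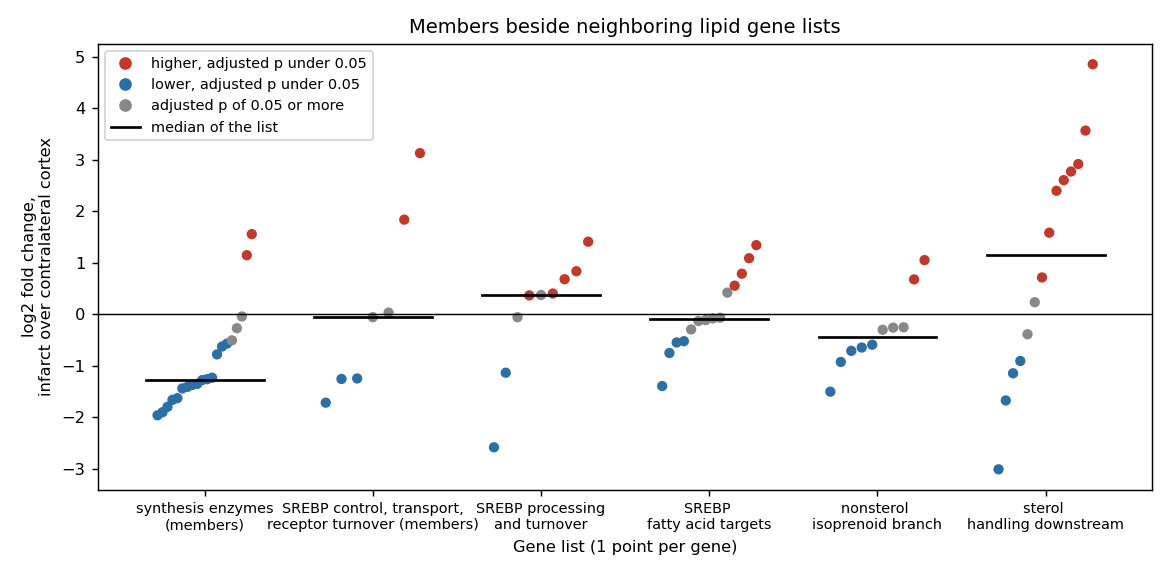
Log2 fold change of infarct over contralateral cortex (y axis) for every gene (points) of the synthesis enzymes, the other 7 members and 4 neighboring lists (x axis), colored by the edgeR call, with a line at each median. The medians run from -1.27 for the 20 enzymes to 1.15 for sterol handling.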

How the data were processed

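Infarcts and contralateral cortices, 3 of each, were profiled by RNA-Seq. Libraries were of stranded mRNA per the labels, and the submitters' processing notes name bcl2fastq, Trimmomatic 0.32, STAR 2.5.2b, HTSeq and the build GRCm38. The deposited values are raw counts per Ensembl gene, 1 table per library, which the authors made without normalization. The annotation and strand setting of the counting are not given in the sources used here. The 5 summary entries of each table, for reads not given to a gene, were left out of library sizes and tests. Together they held 26.6% to 28.2% of all tallied reads in infarcts and 32.0% to 34.3% in contralateral cortices. Totals of 11943570 to 19933962 counts set the precision, and counting error weighs most on *Fdps* and *Mvk*.

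Gene identifiers were matched to GENCODE M21, where 45143 of 46078 were found, for positions, exon lengths, overlaps and shared 75-base words. Regions were compared with edgeR 4.0.16 in R 4.3.3 (filterByExpr by region, TMM, robust glmQLFit, glmQLFTest with region as the only term), with Benjamini-Hochberg adjustment over 15554 genes and a threshold of 0.05. SE is the absolute log2 fold change over the square root of *F*. CPM used TMM-scaled library sizes, divided by kilobases of merged exons where genes are compared. The fit was tested on simulated data. Alternatives were DESeq2 1.42.0 (the authors' tool), limma voom 3.58.1, other scalings and filters, a replicate block and leaving out each library. Tables and plots were made with Python 3.11.15, pandas 2.3.3 and matplotlib 3.10.9.

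The 27 genes, the 4 neighboring lists (processing and turnover of SREBP, fatty acid targets, the isoprenoid branch, sterol handling) and the 8 marker lists were chosen with earlier results of these data known. All 27 genes are named, and of each neighboring list at most 3 genes per direction with the largest log2 fold change among those past the threshold. *Acat3*, *Ctsb*, *Vps51*, *Gm13502* and *Gm43738* are named only as overlapping or similar loci, and *Cd2* was named after its values were seen. One marker of the lymphocyte and plasma cell list is not reported here and was left out of the list's counts and sums.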

Additional observations from a re-analysis of the deposited data

How the results depend on the processing

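Under 14 alternative settings, 4 of the 27 genes rose in each, and 16 to 18 fell. Of the 22 genes past the threshold, 20 kept their direction and their side of it in every alternative that could test them. The exceptions were *Ggps1*, on library totals and without infarct replicate 2, infarct replicate 3 or contralateral replicate 2, and *Nsdhl*, on library totals. *Fdps* could not be tested where at least 10 counts were required in every library. Library totals moved the median log2 fold change of all tested genes from 0.030 to 0.23.

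Signs turned only among genes that did not pass the test. On library totals *Mvk* and *Scap* had log2 fold changes of 0.15 and 0.15. With 1 library left out, *Mvk* ranged from -0.31 to 0.17, *Scap* from -0.12 to 0.043 and *Insig2* from -0.026 to 0.089. Signs turned without infarct replicate 2 or contralateral replicates 1 or 3 for *Mvk* (0.17, 0.074 and 0.11), without infarct replicate 2 for *Scap*, and without infarct replicate 1 or contralateral replicate 1 for *Insig2* (-0.0026 and -0.026). The causes were not tested.

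With the replicate number as a block, 4 genes rose and 18 fell, and over all tested genes 5100 rose and 4576 fell, beside 5324 and 4787 without it. Deviations of same-numbered libraries correlated at -0.19 to 0.10 and those of other pairs at -0.24 to 0.18, no infarct correlated best with its own number, and the numbers were not taken to pair the samples. Low counts limit *Fdps* and *Mvk* most.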
